A study of Mus musculus with 18 samples.

Results

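The hotspots described are the PWD recombination hotspots that are not listed in hybrids of PWD and B6. They are DMC1 hotspots of PWD mice with no hotspot centre within 1000 bp in any of 4 F1 hybrid maps. They were chosen from the deposited hotspot lists by distance alone, and numbered 10627 of the 21103 autosomal PWD hotspots, or 50.4% (95% Wilson interval 49.7 to 51.0%). The other 10476 hotspots had a centre within that distance in at least 1 F1 map and are called retained.

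PRDM9 is a zinc-finger protein that binds DNA motifs in early meiotic cells and places H3K4me3 on the histones beside them. Double-strand breaks are then made at these sites, and DMC1, a meiosis-specific strand-exchange protein, coats the single-stranded ends, so DMC1 ChIP-seq marks where breaks were made. Different Prdm9 alleles encode different zinc fingers and send breaks to different places, and a hybrid male carries 2 alleles and 2 versions of every target site.

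The 4 F1 maps were those of the infertile F1, from the (PWDxB6)F1 cross with PWD/B6 alleles of Prdm9, and of the reciprocal F1, from the (B6xPWD)F1 cross with B6/PWD alleles. The rescue F1 came from the (PWDxB6)F1 cross with PWD/Humanized alleles, and the Hum/PWD F1 from the (B6xPWD)F1 cross with Humanized/PWD alleles, where Humanized is an allele whose zinc fingers were replaced by human ones. All 4 kept 1 PWD allele of Prdm9, so the protein that marks PWD hotspots was encoded in every hybrid. Maps used for comparison were those of (B6xCAST)F1 males with B6/CAST alleles and of C57BL/6J males with Humanized/Humanized (Hum/Hum), B6/Humanized (B6/Hum) or B6/B6 alleles. The PWD/PWD map came from PWD/PhJ males, and it sets the starting list. Whole testes of males about 10 weeks old were used throughout, except that no age is given here for the B6/B6 map, which re-analyses a library of other submitters. Every map was 1 library, so no difference between genotypes could be tested, and the intervals below cover the counting of hotspots only.

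The autosomal maps differed in length and in the weakest hotspot they list, which bears on every statement of absence. Heat is the authors' relative DMC1 signal per hotspot. The infertile F1 map held 23554 hotspots down to a heat of 4, the Hum/PWD F1 map 20623, the reciprocal F1 map 17516 and the rescue F1 map 15019 down to a heat of 13.7, against 21103 in the PWD/PWD map down to 5.9. A lost hotspot is thus one not listed in the F1 maps at these depths, and a hotspot too weak to be called cannot be told apart from one that was not used. Total reads were not given, so no floor could be set for single sites.

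Sequence around the lost hotspots is shown first, because a short motif is the part of a hotspot that PRDM9 reads. A weight matrix of 30 bp was fitted on the even chromosomes to what is enriched in the central 300 bp of PWD hotspots over flanking sequence. It has the consensus NNGGCANAGNCCAAGNCACNNNAGNCNGNN, in which 18 letters are given and N stands for any base. Both strands of the central 200 bp were searched. A match is a window that scores above 95% of flanks of the same size 500 bp away. On the odd chromosomes, which were left out of the fit, 25.5% of PWD centres and 5.40% of flanks held a match. The fit started from CAAGTCAC, the short word most enriched at PWD centres over all autosomes. The odd chromosomes thus had a part in choosing that word, and their shares are not fully independent of the matrix. The genome sequence is the B6 reference (mm10, RefSeq GRCm38.p6), so bases particular to PWD are not seen. The lines below give matches with capitals where a base equals a consensus letter. The first 3 are the hottest lost hotspots with a match, at chr2:173596566-173596595 (plus strand), chr2:3940900-3940929 (plus) and chr19:55562048-55562077 (plus).
Ppp4r1l-ps: caGGCgtgacCCcAccCACccaAGgCatct
Frmd4a: ttaagtcAtttCAAGgCAggcaAGgCaGag
Vti1a: cgctgtcgGgtCAgGtCACtgagGcCtGca

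These matches were loose, with 12, 11 and 10 of the 18 letters. The next 3 are the hottest lost hotspots with a match that also appear in the B6 x CAST map, among those from which sequence is shown. They lie at chr10:111477177-111477206 (plus), chr2:6409923-6409952 (minus) and chr17:6736045-6736074 (plus), all in introns.
Nap1l1: aaaGCAaAGttCAAGtCAttgagtttactg
Usp6nl: tgGGCAcAGaaCAAGgCAataggGctacct
Sytl3: ggGGCAacctCCcAGtCACtgaAGcattga

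The last 3 score highest among the lost hotspots from which sequence is shown, at chr4:128715288-128715317 (minus), chr4:120857652-120857681 (plus) and chr16:17679197-17679226 (plus). They matched 15, 14 and 15 of the 18 letters, and the best-matching hotspots were of middling heat, at 43.2, 24.4 and 61.4.
Phc2: caGGCtcAGcCCcAGgCtCtcaAGcCtGct
Rims3: ataGCAaAGtCCAAGcCAgacagGgCtcca
Med15: atGGCAagGtCCAgGcCACccaAGaCtata

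The 2 hottest lost hotspots held no match in their central 200 bp. They lie in introns of Cc2d2a, at chr5:43727778-43727977, and Gipc2, at chr3:152103020-152103219, and are shown on the plus strand.
Cc2d2a: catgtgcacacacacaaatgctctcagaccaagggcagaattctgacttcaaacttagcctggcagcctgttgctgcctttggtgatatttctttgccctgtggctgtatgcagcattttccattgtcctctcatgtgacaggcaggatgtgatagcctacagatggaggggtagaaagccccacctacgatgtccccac
Gipc2: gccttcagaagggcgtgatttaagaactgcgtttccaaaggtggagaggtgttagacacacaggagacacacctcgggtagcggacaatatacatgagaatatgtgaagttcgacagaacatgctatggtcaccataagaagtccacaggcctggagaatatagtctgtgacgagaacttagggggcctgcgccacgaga

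Lost hotspots were mostly weak, but not all of them were. Their median heat in the PWD/PWD map was 22.0 (quartiles 14.4 and 36.8, range 5.9 to 312.3), against 81.35 (38.475 and 144.025, range 6 to 1864.9) in retained hotspots. They made up 50.4% of the hotspots and carried 22.4% of the heat. Above a heat of 100 there were 177 lost hotspots and 4306 retained ones, and above 200 there were 5 lost and 1280 retained. Of the lost, 2614 (24.6%) were hotter than the PWD median of 37.1.

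With the map cut into 10 heat classes of equal size, the lost share was 79.2% in the weakest class and 79.8% in the next, then 76.4, 75.4, 68.9, 58.2, 38.8, 20.1 and 5.69%, and 0.995% (21 of 2110) in the hottest. The share was thus nearly flat at about 75 to 80% up to a heat of 27.5 and dropped steeply from there to the hottest class. Since heat and listing come from maps with a lowest heat of their own, this curve follows the detection limits as well as any loss, and the 2 cannot be told apart.

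**Figure D1:**
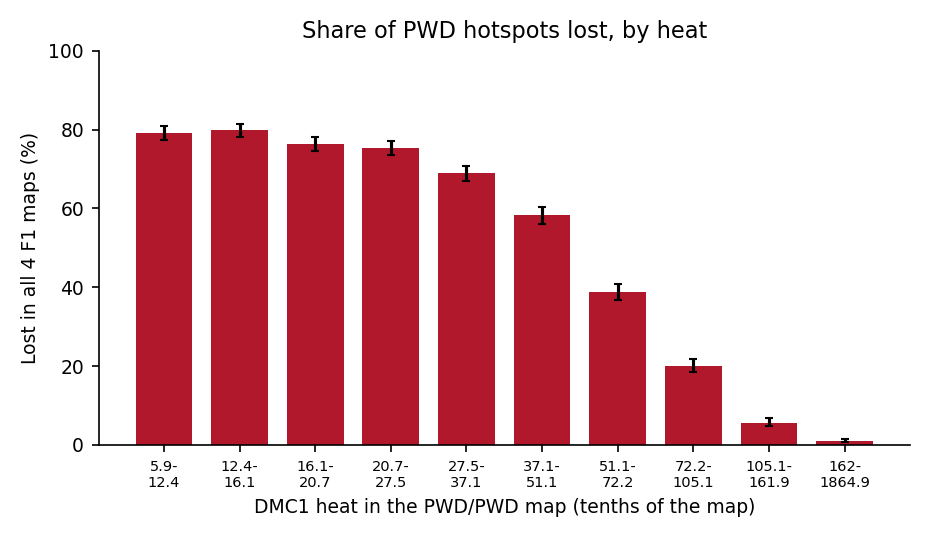
Share of PWD hotspots lost in all 4 F1 maps (vertical axis, percent) in 10 heat classes of the PWD/PWD map (horizontal axis, range of DMC1 heat). Bars are shares and lines 95% Wilson intervals; the share stays near 75 to 80% in the 4 weakest classes and ends at 0.995% in the hottest.

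The infertile F1 map listed the most PWD hotspots and the rescue F1 map the fewest. These are also the longest and the shortest of the 4 maps, with 23554 and 15019 hotspots. Of all PWD hotspots, 53.1% were absent from the infertile F1 map, 65.3% from the reciprocal F1 map, 70.4% from the Hum/PWD F1 map and 81.0% from the rescue F1 map. Retained hotspots were found in 4 maps (3614), 3 maps (2053), 2 maps (2071) or 1 map (2738), and 2402 of the last kind were in the infertile F1 map alone. Median PWD heat was 22.0 in lost hotspots, 42.2 in those found in 1 map, 65 in 2 maps, 102.9 in 3 maps and 145.25 in 4 maps.

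Several of the hottest lost hotspots lay just beyond the matching limit. The hottest of all was in an intron of Cc2d2a, a gene of the ciliary transition zone, at chr5:43727878 with a heat of 312.3. All 4 F1 maps had a centre between 1011 and 1268 bp away, and the nearest, of the rescue F1, had a heat of 134.2. The second was in an intron of Gipc2 with a heat of 245.2, and its nearest F1 centre lay 10518 bp away in the infertile F1 map with a heat of only 11.6.

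The third, with a heat of 238.1, lay 134 bp outside Strn, which encodes a striatin scaffold protein, and had centres 1465 bp away in both the infertile and the reciprocal F1. The fourth was in an intron of Nudt5 (213.5), 12954 bp from an F1 centre. The fifth was in an exon of the pseudogene Ppp4r1l-ps (203.1), with an infertile F1 centre of heat 264.6 at a distance of 1251 bp. These 5 are the lost hotspots with a heat above 200, and 3 of them had an F1 centre within 2 kb.

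Ranks 6 to 10 were in introns of Plekha5 (197.8), the antisense gene Gm42567 (191.7), the lincRNA Gm14243 (187.8) and Srek1ip1 (182.9), and 42370 bp from Nln (181.7). Ranks 11 to 15 were outside genes nearest to Gm4340 (177.1) and Frmd4a (176.3), and in introns of Il34 (173.3), Vti1a (173.1) and Fancm (172.1), which encodes a DNA-translocase of the Fanconi anaemia pathway that limits crossovers in several species. Of these 15, 10 were intronic and 4 intergenic. An F1 centre lay within 2 kb of 4 of them and within 10 kb of 8, none was in the B6 x CAST map, and 3 held the motif. Over all lost hotspots, 4.41% had an F1 centre within 2 kb and 30.2% within 10 kb. The B6 x CAST map held 7.50% of all lost hotspots, and 21.6% of them had the motif.

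Distance to the nearest F1 hotspot was large for most lost hotspots. Its median was 19.4 kb (quartiles 8.18 and 40.2 kb), with a range from 1005 bp to 833 kb. An F1 centre lay within 2 kb of 469 lost hotspots (4.41%) and within 10 kb of 3212 (30.2%), and 567 (5.34%) had none within 100 kb. By map, the median distance was 30.8 kb to the infertile F1, 40.5 kb to the reciprocal F1, 47.2 kb to the rescue F1 and 34.7 kb to the Hum/PWD F1, the order of the maps' lengths.

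Hot lost hotspots were closer to an F1 centre than weak ones. Among the 177 with a heat of at least 100, 19 (10.7%, Wilson interval 6.98 to 16.2%) had an F1 centre within 2 kb, against 450 of 10450 (4.31%, 3.93 to 4.71%) of those below 100. Their median distance was 13.3 kb, against 19.5 kb in the weaker ones. For 6 of the 19 the nearby F1 centre lay within 1000 bp of a different PWD hotspot, and for the other 13 it did not. Among the 450 below 100, it did for 90.

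Around lost hotspots as a whole the 4 F1 maps were slightly denser at 1 to 2 kb than farther out. Together they had 40.7 centres per Mb at 1 to 1.25 kb from lost centres, 49.1 at 1.25 to 1.5 kb, 42.6 at 1.5 to 2 kb and 39.8 at 2 to 3 kb, against 39.1 at 20 to 50 kb. The counts behind the first 3 values were 216, 261 and 453 centres. A site listed in several F1 maps was counted once per map, so these centres are not independent. The highest of these values, at 1.25 to 1.5 kb, lay above the density at 20 to 50 kb, while the value next to the limit was close to it. Retained hotspots of matched heat had 41.5 centres per Mb at 1 to 1.25 kb, 21.6 at 1.25 to 1.5 kb, 20.2 at 1.5 to 2 kb, 31.2 at 2 to 3 kb and 38.5 at 20 to 50 kb.

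At the limit itself the choice is arbitrary. The lost hotspots nearest to it were in introns of Nrg3 (heat 29.7, F1 centre at 1005 bp), Bdp1 (26.8, 1006 bp) and Thsd7a (12.1, 1007 bp). Just inside it were retained hotspots in an intron of Gm816 (20.9, 999 bp), outside Slc16a7 (34.1, 999 bp) and outside Spsb1 (10.8, 995 bp). The hotspot in Bdp1 lay 996 bp from a B6/B6 centre with a heat of 160.

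**Figure D2:**
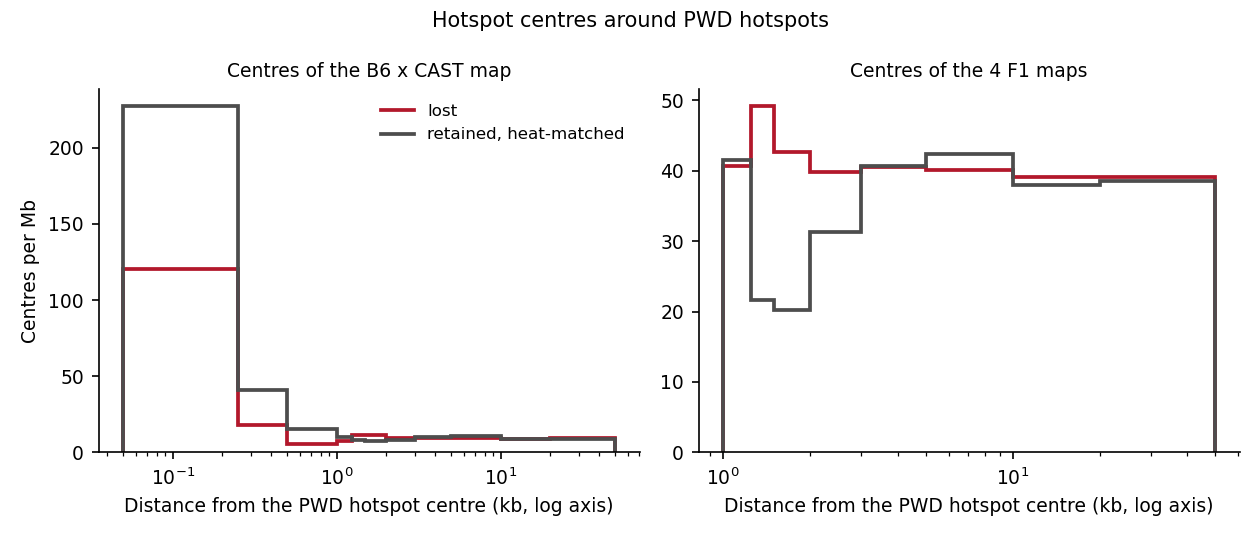
Density of hotspot centres (vertical axis, centres per Mb) by distance from the PWD centre (horizontal axis, kb, log axis with the innermost ring drawn from 0.05 kb) for lost hotspots (red) and retained hotspots weighted to the heats of the lost (grey), for the B6 x CAST map (left) and for the 4 F1 maps from 1 kb outwards (right). B6 x CAST centres peak at both kinds, at 120.6 and 227 per Mb within 0.25 kb, and F1 centres stay near 39 to 49 per Mb around lost hotspots.

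The B6 x CAST hybrid has neither the PWD genome nor a PWD allele, and the selection did not use its map. It shares the B6 genome with every F1 hybrid, and the B6 allele with the infertile and reciprocal F1. A PWD site that is also a B6 target can thus be both retained and present in this map, so the readout is not fully independent of the rule. Of the lost hotspots, 797 (7.50%, Wilson interval 7.01 to 8.02%) had a B6 x CAST centre within 1000 bp, against 14.9% of retained hotspots weighted to the same heats in 50 heat bins; 11.4% of all PWD hotspots did. The difference, lost minus retained, was -7.43 percentage points (95% interval -8.67 to -6.18), and it was negative on 19 of 19 autosomes. Without hotspots that had a B6/B6 centre within 1000 bp it was -6.14 points (-7.38 to -4.90). The spacing was tight: 641 of the 797 centres (80.4%) were within 250 bp. Around lost hotspots the B6 x CAST density was 120.6 centres per Mb within 250 bp and 9.18 at 20 to 50 kb. For retained hotspots of matched heat it was 227 and 8.79. Measured against the surrounding density, lost hotspots met a B6 x CAST centre 4.09 times as often as their neighbourhood gives, and retained ones, unweighted, 8.43 times.

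How far lost and retained hotspots differed depended on which F1 maps had kept the retained ones. Weighted to the heats of the lost in 10 heat bins, 6.92% of hotspots kept by the infertile F1 alone were in the B6 x CAST map, a difference of 0.575 points (-0.703 to 1.85) that includes 0. The matched share was 8.95% for hotspots in any 1 map, 16.6% in 2 maps, 19.4% in 3 maps and 26.3% in 4 maps, against 7.50% in lost hotspots. The difference from the last was -18.8 points (-22.4 to -15.2). Lost hotspots and those kept by the infertile F1 alone were thus not separated by this readout. Values for 2 and 3 maps were not separated either, with differences from the lost of -9.14 points (-11.6 to -6.65) and -11.9 points (-15.9 to -7.91). Without weighting by heat the retained shares were 8.28% for the infertile F1 alone, 9.39% for 1 map, 15.02% for 2 maps, 13.2% for 3 maps and 21.1% for 4 maps.

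**Figure D3:**
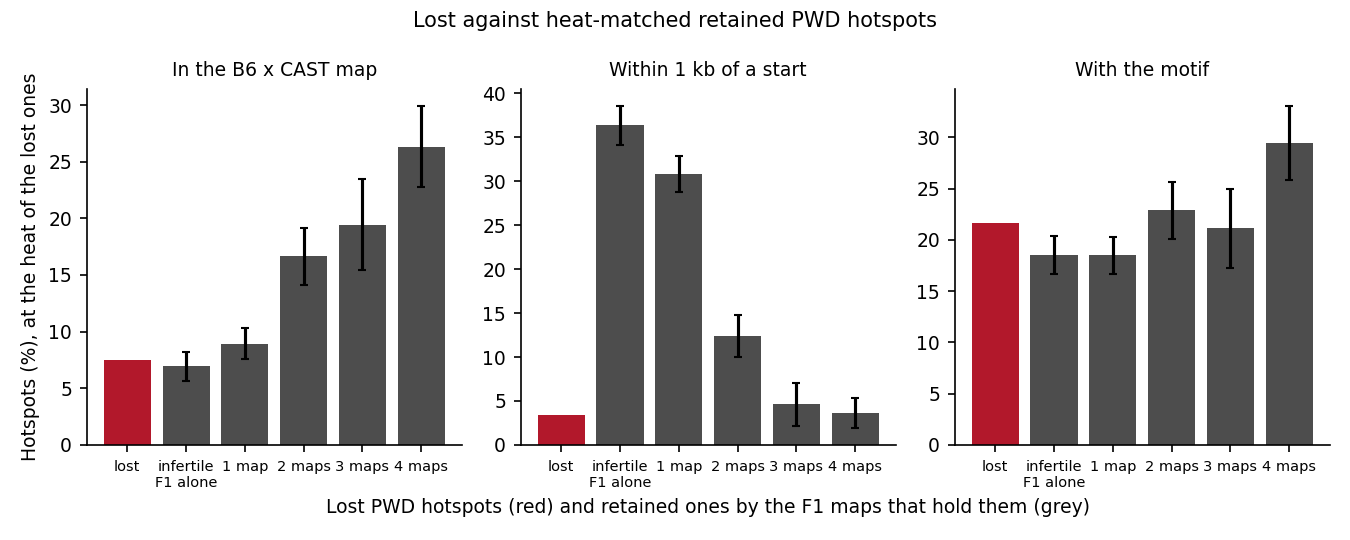
Percent of hotspots (vertical axes) in the B6 x CAST map, within 1 kb of a transcription start, and with the 30 bp motif, for lost PWD hotspots (red) and for retained ones by the F1 maps that hold them, weighted to the heats of the lost (grey; the infertile F1 alone is a subset of 1 map). Lines are 95% intervals of the difference from the lost; presence in the B6 x CAST map was 8.95% in 1 map and 26.3% in 4 maps, against 7.50% in the lost.

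Lost hotspots that reappeared in the B6 x CAST hybrid could be strong there. Their B6 x CAST heat had a median of 56.2 (range 6.2 to 627.3), against a PWD median of 22.2 at the same sites, and 277 (34.8%) reached 100. Among retained hotspots found in the B6 x CAST map, 678 of 1602 (42.3%) reached 100, without weighting. Heat was higher in the B6 x CAST map than in the PWD/PWD map at 627 of 797 lost sites (78.7%) and 779 of 1602 retained sites (48.6%). In the colder 50% of the PWD map the shares were 85.7% of lost and 78.4% of retained sites. In the hotter 50% they were 57.9% and 39.1%. On the log2 scale the mean B6 x CAST heat of lost sites was 5.88, against 5.65 in heat-matched retained hotspots, a difference of 0.23 (0.08 to 0.39). Without weighting the order turned, with a retained mean of 6.15 on the log2 scale and medians of 56.2 in lost and 77.85 in retained sites. In the hotter 50% of the PWD map the medians were 72.55 in lost and 92.1 in retained sites, and in the colder 50% they were 52.7 and 41.5. Heat is scaled within each map, so a level in one map is not a level in another.

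The hottest lost hotspot found in the B6 x CAST map was in an intron of Nfatc1, a transcription factor of calcium signalling, with a heat of 142.5 in PWD and 180.5 in B6 x CAST, where 0.913 of the signal came from the B6 chromosome. Nap1l1, a histone chaperone gene, followed with 118.7 in PWD and 348.3 in B6 x CAST. Usp6nl had 118.1 in PWD and 506.1 in B6 x CAST, with a B6 share of 0.592. A site far outside Gpc5 had 112.1 and 86.7, with a B6 share of 0.095, and Sytl3 had 110.6 and 11.2. The same motif-bearing sites of Nap1l1, Usp6nl and Sytl3 are those printed above. The Nfatc1 site also held a match, which is not printed.

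Ranked by B6 x CAST heat instead, a choice made after the values were seen, the leading lost hotspot was in an intron of Dapp1, with 627.3 in B6 x CAST and 82.2 in PWD. Its B6 share was 0.990, so nearly all of its signal came from the B6 chromosome. Ndst3, a heparan sulfate enzyme gene, had 461.0 in B6 x CAST and 21.6 in PWD, with a B6 share of 0.831. The Dapp1 site had no F1 centre within 12170 bp and the Ndst3 site none within 82861 bp.

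The B6 share, the authors' fraction of DMC1 signal from the B6 chromosome, was given for 735 of the 797 sites. Its median was 0.538, and 559 sites (76.1%, Wilson interval 72.8 to 79.0%) lay between 0.1 and 0.9. A share above 0.9 was found at 130 (17.7%) and one below 0.1 at 46 (6.26%). In retained hotspots of matched heat (10 bins) 69.0% lay between 0.1 and 0.9, 23.3% above and 7.70% below. The difference was 7.06 points (1.63 to 12.5) for the middle range and -5.62 points (-10.6 to -0.665) for shares above 0.9, and the mean share was 0.566 in lost and 0.609 in retained sites. Without weighting by heat, 76.1% of lost and 74.2% of retained sites lay between 0.1 and 0.9. The direction depended on heat. In the colder 50% of the PWD map 78.5% of lost and 69.2% of retained sites lay in the middle range, while in the hotter 50% it was 69.2% of lost and 75.5% of retained sites, with 23.1% of lost and 18.3% of retained sites above 0.9. The number of informative reads per site was not given, so the error of a single share is unknown.

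**Figure D4:**
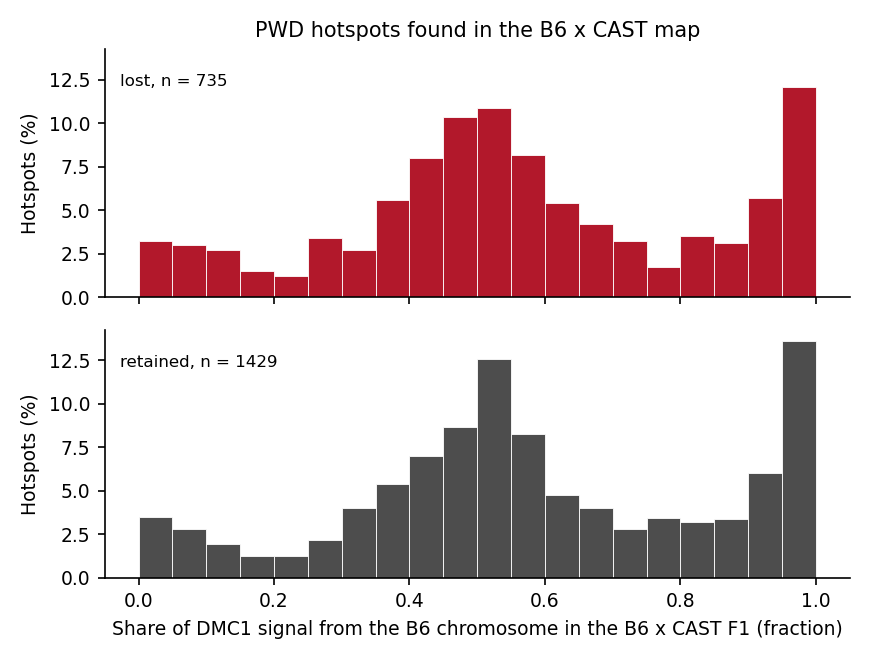
Share of DMC1 signal from the B6 chromosome in the B6 x CAST F1 (horizontal axis, fraction in steps of 0.05) at lost (top, 735 sites) and retained (bottom, 1429 sites, not weighted by heat) PWD hotspots, as percent of sites (vertical axis). Both have a broad peak around 0.5 and a second rise above 0.95, where 12.1% of lost sites lie.

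Few lost hotspots were B6 or humanized hotspots. A B6/B6 centre was near 0.781% of them, against 5.23% of heat-matched retained hotspots and 3.59% of retained ones without weighting (2.18% of all PWD hotspots). A Hum/Hum centre was near 0.433%, against 6.59% at matched heat and 3.75% without weighting (2.08% of all). A B6/Hum centre was near 0.226%, against 6.97% and 4.10% (2.15% of all). The rule fixes much of this: 2 of the F1 hybrids carry the B6 allele and 2 the humanized allele, so a PWD site that is also a target of those alleles tends to be counted as retained. All 3 shares were below the 1.61 to 1.68 centres that 100 windows of the same neighbourhood held. The hottest lost hotspots with a B6/B6 centre lay 878 bp outside Kcnk5 (131), in Ninl (113.1) and in Sbk3 (102.8), and those with a Hum/Hum centre were outside Rbm46 (95.5), in Tbcel (82.7) and outside Kcnk10 (71.7).

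Lost hotspots were rarely at promoters. A start of a protein-coding transcript lay within 1 kb of 356 (3.35%), against 19.7% of retained hotspots of matched heat, a difference of -16.3 points (-17.7 to -15.0) with the same sign on 19 of 19 autosomes. Without weighting by heat the retained share was 7.64% (800 of 10476), since hot retained hotspots were seldom near a start, and it was 5.48% over all PWD hotspots. Most of the contrast came with weak hotspots kept by the infertile F1 alone, of which 36.4% were near a start at matched heat (511 of 2402, or 21.3%, unweighted). Against hotspots kept by all 4 F1 maps, of which 3.59% were near a start, the difference was -0.235 points (-1.95 to 1.48). In the hotter 50% of the PWD map the shares were 2.29% of lost and 4.38% of retained. At matched heat 12.4% of hotspots kept by 2 maps were near a start (-9.02, -11.4 to -6.64), and 4.63% of those kept by 3 maps (-1.28, -3.73 to 1.17). A low share of starts thus set lost hotspots apart from those kept by the infertile F1 alone or by 2 maps, not from those kept by every hybrid.

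Base composition moved with promoters. GC content of the central 200 bp was 43.9% in lost hotspots, against 47.6% in matched retained ones (difference -3.66 points, -4.05 to -3.26) and 44.9% in retained ones without weighting. Without hotspots within 1 kb of a start it was 43.6%, against 44.1% (-0.450, -0.777 to -0.122). CpG dinucleotides per 100 bp were 0.998, against 2.34 (-1.34, -1.46 to -1.22) and 1.32 without weighting. Against hotspots kept by all 4 maps the CpG values were 0.998 and 1.00.

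Repeats masked in the reference covered 19.3% of the central 200 bp of lost hotspots, against 22.0% in matched retained ones (-2.68, -3.67 to -1.70). Away from starts the values were 19.6% and 26.2% (-6.59, -7.77 to -5.42). Without weighting by heat there was little gap, at 19.3% of lost and 19.03% of retained sequence overall and 19.6% and 19.8% away from starts. The direction also depended on the retained hotspots chosen: against those kept by the infertile F1 alone, at 16.0%, lost hotspots held more repeats (3.30 points, 2.18 to 4.42).

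Introns held 51.9% of lost hotspots, against 46.2% of matched retained ones (5.73 points, 3.91 to 7.54) and 50.9% of retained ones without weighting. Intergenic sequence held 40.5%, against 39.8% (0.692, -1.09 to 2.47), and away from starts 41.3%, against 47.5% (-6.12, -8.16 to -4.09). Without weighting by heat the retained intergenic share away from starts was 41.9%. Coding exons held 2.46%, against 4.03% at matched heat and 3.28% without weighting. UTRs held 2.30%, against 6.40% at matched heat and 3.29% without weighting. Away from starts the UTR shares turned round, with 1.94% of lost and 1.22% of matched retained hotspots (0.713, 0.0835 to 1.34).

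The motif was as common in lost hotspots as in retained ones of the same heat. On the odd chromosomes, 21.1% of lost hotspots held a match, against 20.8% of heat-matched retained ones (0.287 points, -1.71 to 2.28); over all autosomes 25.8% of PWD hotspots did. Without weighting by heat the retained share was 29.9%, so the raw gap of the motif went with heat. In the hotter 50% of the map on odd chromosomes the shares were 26.1% of lost and 30.2% of retained (-4.06, -7.33 to -0.799), and in the colder 50% they were 19.5% and 17.9% (1.67, -0.744 to 4.08). Away from transcription starts, over all autosomes, the motif was rarer in lost hotspots, at 21.8% against 23.9% of matched retained ones (-2.14, -3.83 to -0.456). Over all autosomes and in 10 heat bins, 21.6% of lost hotspots held a match, against 18.5% of those kept by the infertile F1 alone and 29.4% of those kept by 4 maps (-7.83, -11.4 to -4.21).

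Exact words were also about as common in lost hotspots as in all retained ones of matched heat. The 5 words of 8 bases most enriched at PWD centres were CAAGTCAC, CCAAGTCA, ACAGACTG, CCAGGTCA and AAGTCTGT, searched on both strands, and the first 2 share 7 letters. CAAGTCAC was within 100 bp of 2.33% of PWD centres and in 0.640% of flanks. At least 1 of the 5 was in 9.65% of lost hotspots, against 9.32% of matched retained ones (0.326, -0.749 to 1.40).

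Lost hotspots with the motif were in the B6 x CAST map slightly more often than those without it. Of the 2297 lost hotspots with a match, 203 (8.84%, Wilson interval 7.74 to 10.1%) were in the B6 x CAST map, and of the 8330 without one, 594 (7.13%, with an upper bound of 7.70%).

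All autosomes lost PWD hotspots in similar proportion, with modest departures. The lost share went from 42.2% on chromosome 18 to 54.7% on chromosome 6. Given the heats of its hotspots, chromosome 18 would hold 49.4%, and the observed share had a Wilson interval of 38.8 to 45.7% (observed minus expected -7.19 points). Chromosome 1 had 46.6%, against 52.3% from its heats (-5.72). Chromosome 8 had 54.2%, against 49.3% (4.84), and chromosome 6 had 3.69 points more than its heats gave. Lost hotspots numbered 3.36 per Mb on chromosome 1 and 5.42 per Mb on chromosome 11, the extremes.

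**Figure D5:**
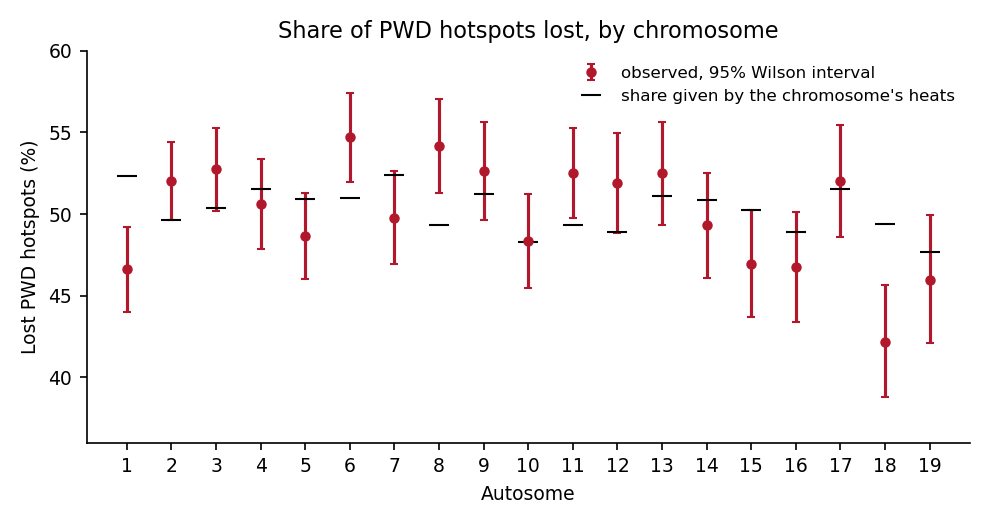
Percent of PWD hotspots lost (vertical axis, which starts at 36%) on each autosome (horizontal axis), with 95% Wilson intervals (red), beside the share that the chromosome's heats give (black dashes). Observed minus expected was -7.19 points on chromosome 18, -5.72 on chromosome 1 and 4.84 on chromosome 8.

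Along chromosomes lost hotspots mixed with retained ones. The longest run of consecutive PWD hotspots that were all lost was 19, over 1.07 Mb at chr2:173596609-174668497, and it begins with the site in Ppp4r1l-ps. The F1 maps were not empty there, with 9 hotspots in each of the infertile and reciprocal F1 maps, 8 in that of the rescue F1 and 12 in that of the Hum/PWD F1. Runs of 18 lay at chr6:144693323-146390827 and chr8:58972814-61582787, and runs of 16 at chr3:34121146-35206567 and chr11:82295547-84009242. In the run on chromosome 3 the infertile and reciprocal F1 maps had 1 hotspot each, and the rescue F1 had 7 and the Hum/PWD F1 9. Another PWD hotspot lay within 50 kb of 64.0% of lost hotspots, against 62.6% of matched retained ones (1.36, -0.407 to 3.13). In the hotter 50% the values were 67.3% and 61.3% (5.99, 3.46 to 8.53), so hot lost hotspots had a close PWD neighbour more often than hot retained ones.

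Genes of meiotic recombination held lost hotspots at about the rate of the genome. A list of 50 such genes had 46 autosomal members in the annotation, 24 of which held 35 PWD hotspots. Of these 35, 14 (40.0%) were lost, in 12 genes, against 50.4% over all PWD hotspots. The hottest was in an intron of Mnd1, which helps DMC1 in strand exchange, with a heat of 54.9 and an F1 centre 1142 bp away. Next came Zcwpw2 (42.5), whose name marks a histone-reading domain family and which is annotated as a pseudogene, and Msh5 (35.9), which stabilises crossover intermediates. Mei4 and Rec114, whose products support break formation, held weak lost hotspots of 15.8 and 11.7 in Mei4 and of 11.1 in Rec114. All 14 lost hotspots in these genes lay more than 1000 bp from any F1 centre, as the rule requires, and their heats were between 6.1 and 54.9.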

How the data were processed

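Analysis began from the deposited hotspot lists in mm10. The aligner was BWA (no version) per the submitters' processing notes. Testes were snap-frozen and single-stranded DNA was sequenced per the labels' protocols. The DMC1 heat is a signal made by the authors. Its definition and the hotspot caller are not given in the sources used. The B6 share is a fraction deposited by the authors without read numbers, so its depth is unknown. H3K4me3 tables hold bins at the hotspots of their own maps and were not used here.

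Centres within 1000 bp counted as the same hotspot. Retained hotspots were reweighted to the heats of the lost in 50 bins of equal size, and bins needed 5 retained hotspots. There were 10 bins for B6 shares, B6 x CAST heat, signs by autosome and retained hotspots split by F1 map. Intervals are 95%, from hotspots counted. They treat hotspots as independent and say nothing of how maps of other animals would differ. With 1 library per map no test was made. Starts are those of 52099 protein-coding transcript entries of GENCODE gene models, and sequence is RefSeq GRCm38.p6. The matrix took 25 rounds with a pseudocount of 5. The weighting and the nearest-centre search were tested on simulated data. Python 3.11.15, NumPy 2.4.6, pandas 2.3.3 and Matplotlib 3.10.9 were used.

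Named genes are those at or nearest to the 15 hottest lost hotspots, the 5 hottest found in the B6 x CAST map, the 3 hottest found in the B6/B6 and in the Hum/Hum map, the 3 on either side of the limit and the members of a list of 50 meiotic genes with a lost hotspot. Of the last, only some are named. The hotspots, lists and comparisons were chosen with earlier results of these data known. No sequence is printed from 1 autosome. Alternatives were other limits, heat bins, windows, definitions of retained and F1 maps cut to equal length.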

Additional observations from a re-analysis of the deposited data

How the results depend on the processing

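The number of lost hotspots was 10627. It was 10901 with a limit of 500 bp, 10158 with 2000 bp, and 13659 with each F1 map cut to its 15019 hottest hotspots, the length of the shortest. Absence from 3 maps gave 13029 without the infertile F1, 10741 without the reciprocal F1, 10651 without the rescue F1 and 10825 without the Hum/PWD F1. No paired analysis was possible because each map is 1 library.

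Values that follow are lost minus retained, in percentage points unless named otherwise. Of the differences with an interval off 0, some turned sign in splits made after seeing the data, which are given first. In the other alternatives of this paragraph and the next, presence in the 3 maps, GC content and starts kept their sign. Against hotspots kept by the infertile F1 alone, presence was 0.575 in the B6 x CAST map and 0.165 in the Hum/Hum map (both intervals across 0). Repeat content was 3.30 against hotspots kept by the infertile F1 alone, the UTR share (-4.10) was 0.713 away from starts, GC content was 0.225 (interval across 0) in the hotter 50% away from starts, and CpG per 100 bp was 0.0708 in the hotter 50% away from starts and from B6/B6 and Hum/Hum hotspots. Presence in the B6 x CAST map (-7.43) was -18.7 against hotspots in all 4 F1 maps, -10.9 with F1 maps of equal length and -6.09 in the hotter 50% of the PWD map. Among alternatives chosen after seeing the data, it was -11.0 away from transcription starts, -6.14 without B6/B6 hotspots, -9.41 away from starts, B6/B6 and Hum/Hum hotspots, and -12.9 with hotspots kept by the infertile F1 alone left out. Presence in the B6/B6 map (-4.45) was -3.44 against all 4 maps, -3.20 at 500 bp, -6.22 at 2000 bp, -2.81 without heat matching, -2.44 in the hotter 50% and -5.62 with equal lengths. After seeing the data, -5.48 away from starts and -6.22 without the infertile F1 alone were added. Presence in the Hum/Hum map (-6.16) was -4.66 at 500 bp, -8.76 at 2000 bp, -3.32 without heat matching, -2.53 in the hotter 50% and -8.27 with equal lengths, and in added settings -8.03 away from starts and -10.5 without the infertile F1 alone.

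GC content (-3.66) was -0.750 against all 4 maps and -2.84 in 1000 bp. In added settings it was -0.450 away from starts, -0.985 without the infertile F1 alone, -0.0113 in the hotter and -4.84 in the colder 50%. CpG per 100 bp (-1.34) was -0.00184 against all 4 maps and -1.14 in 1000 bp, and in added settings -0.149, -0.320, -0.0603 and -1.76 in the same order. Repeat content (-2.68) was -4.06 against all 4 maps, and in added settings -6.59 away from starts and -6.68 without the infertile F1 alone. The share near a start (-16.3) was -0.369 against all 4 maps, and in added settings -3.76 without the infertile F1 alone, -2.08 in the hotter and -21.0 in the colder 50%. The share with an 8-base word (0.326, interval across 0) was -2.76 against all 4 maps and 2.40 in 500 bp, and in added settings -1.18 away from starts and -0.865 without the infertile F1 alone. The share within 50 kb of another PWD hotspot (1.36, interval across 0) was, in added settings, 3.53 away from starts, 4.25 without the infertile F1 alone and 5.99 in the hotter 50%. The 10 and 100 heat bins and matching by nearest heat left every tested difference within its interval. The cause of these shifts was not tested. Depth per map is unknown, so a lost hotspot may be one below the listing limit of the F1 maps.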
